A study of Mus musculus with 161 samples.

Results

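The cells described here are all 3248 barcodes of 1 single-cell library, taken from mouse bone marrow-derived macrophages (BMDMs) 6 h after polarization to an M1 state. They are 3248 of the 22881 barcodes in the 7 single-cell libraries of the series. The cells were defined by the label of the library, and every barcode in it was kept. This part and its markers were chosen with earlier results of these data known. The marrow came from femurs of C57BL/6J mice aged 6 to 10 weeks, and all groups were grown in medium that held MCSF, the macrophage growth factor, at 20 ng/mL and 20% horse serum. Stimulation began on day 7. The M1 dish received 100 ng/mL lipopolysaccharide (LPS) together with 25 ng/mL interferon-γ (IFN-γ), while the M0 dish stayed in base medium for the same 6 h. The M2 dishes, used below for comparison only, received 25 ng/mL interleukin-4 (IL-4). Cells were loosened with cold Versene, scraped and run on the first version of the 10X Genomics kit. A single biological replicate was collected for each single-cell condition, so no difference between these libraries can be set against a spread between dishes or mice. Intervals on single-cell values therefore cover counting error only.

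LPS is a component of the bacterial outer membrane sensed by Toll-like receptor 4, which activates NF-κB and interferon regulatory factors, and IFN-γ acts through its own receptor on the cell surface. The combination is the classical M1 stimulus. It induces inflammatory cytokines such as interleukin-12, interleukin-6 and interleukin-1β, chemokines that recruit leukocytes, and Nos2, the inducible nitric oxide synthase that makes nitric oxide from arginine. Individual macrophages given the same stimulus are known to differ in how much of a given cytokine transcript they carry, which bulk measurements average out. The study ran single-cell sequencing to ask whether cells of a dish responded alike.

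The 6 h M1 library held 8761151 unique molecular identifiers (UMIs), with a median of 2215.5 and a range of 890 to 18576 per cell, and a median of 945 detected genes. The 6 h M0 library held 2446 barcodes with a median of 1999.5 UMIs. Mitochondrial transcripts made up a median of 1.497% of UMIs in M1 cells and 1.55% in M0 cells. In all, 76 barcodes of the M1 library also occurred in at least 1 of the other 6 libraries, 11 of them in 6 h M0. Values per cell were compared after each cell had been thinned at random to 1000 UMIs, which kept 3084 M1 cells and left out 164 shallower ones. The same step kept 2235 M0 cells and left out 211. No doublet caller was run, and a droplet that held a pair of cells would count here as 1 cell.

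The label was first checked against its markers. Lyz2, the macrophage lysozyme, had a UMI in 98.9% of thinned M1 cells and 99.6% of M0 cells, and Csf1r, the receptor for MCSF, in 10.2% and 31.1%. The lists of B cell, T and NK cell, mast cell, erythroid and fibroblast genes summed to between 0 and 1.26 CPM (UMIs per 1000000 UMIs of a library) in the M1 library. Dendritic cell genes summed to 32.0, neutrophil genes to 25.6, endothelial genes to 19.4 and osteoclast genes to 60.7. The megakaryocyte list summed to 5581, of which Pf4, a chemokine gene also read in M0 cells at 7841, made up 5565. Its other members gave 119 UMIs for Ppbp, 9 for Gp1bb, 7 for Gp9 and 2 for Itga2b, and those of Gp1bb and Gp9 lay almost wholly in a small cluster described below. Arg1, the arginase of the M2 state, gave 4.11 CPM at 6 h M1, 6.31 at 6 h M0 and 2724 at 6 h M2, and no UMI of Retnla was found among the M1 cells. The part of these other cell types in the results was not tested.

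Nos2 and the 6 marker genes were close to absent before M1 treatment and abundant after it. Nos2 gave 9526 UMIs at 6 h M1, or 1087 CPM (1066 to 1109, exact Poisson interval at 95%). It gave 0 UMIs at 6 h M0, 6 h M2, 24 h M0 and 24 h M2, 1 UMI at 0 h M0 and 566 CPM at 24 h M1. Taking 3 counts as the floor in 6 h M0, Nos2 was at least 2183-fold higher in M1 than in M0 cells. Il12b, the p40 chain of interleukin-12, gave 1335 CPM (1310 to 1359) at 6 h M1 and 9.13 at 24 h M1, and no UMI in any of the 5 other libraries. Il6, an interleukin with systemic inflammatory effects, gave 415 CPM (402 to 429) at 6 h M1, 6.32 at 24 h M1 and no more than 1 UMI in each of the others. Only the M1 libraries thus carried Nos2, Il12b and Il6 above 1 UMI, and the 6 h level was the higher in each case.

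The remaining markers were also highest at 6 h M1. Il27, the p28 chain of interleukin-27, gave 1624 CPM (1598 to 1651) at 6 h M1 against 2 UMIs in all at 6 h M0, a ratio of 4891 with a counting interval of 1354 to 40389. Il1b, the precursor of interleukin-1β, gave 761 CPM (743 to 780) against 1.66, and 39.5 at 24 h M1. Ptgs2, the inducible cyclooxygenase, gave 1063 CPM (1042 to 1085) against 1 UMI, a ratio of 6402 with a counting interval of 1149 to 252900. Cd40, a costimulatory receptor, gave 3082 CPM (3046 to 3119) against 6.48 at 6 h M0, 64.3 at 6 h M2 and 202 at 24 h M1. All 6 markers were thus higher at 6 h M1 than in each of the other 6 libraries.

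The share of cells with at least 1 UMI differed widely between the markers. After thinning, a Nos2 UMI was found in 59.8% of M1 cells (58.0 to 61.5, exact binomial interval at 95%) and Cd40 in 92.1% (91.0 to 93.0). Il27 was found in 62.6%, Ptgs2 in 54.7%, Tnf in 46.5%, Il12b in 42.7%, Il1b in 29.7% and Il6 in 23.7%. In 6 h M0 cells the share was 0 of 2235 for Nos2, Il12b and Il6, which allows up to 0.134%, and at most 2.60% for the other 5, reached by Tnf. At 24 h M1 the share with Nos2 was 37.5%, and it was 0.423% for Il12b and 0.461% for Il6. A share depends on depth: without thinning, 79.2% of the 3248 M1 cells had a Nos2 UMI.

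**Figure D1:**
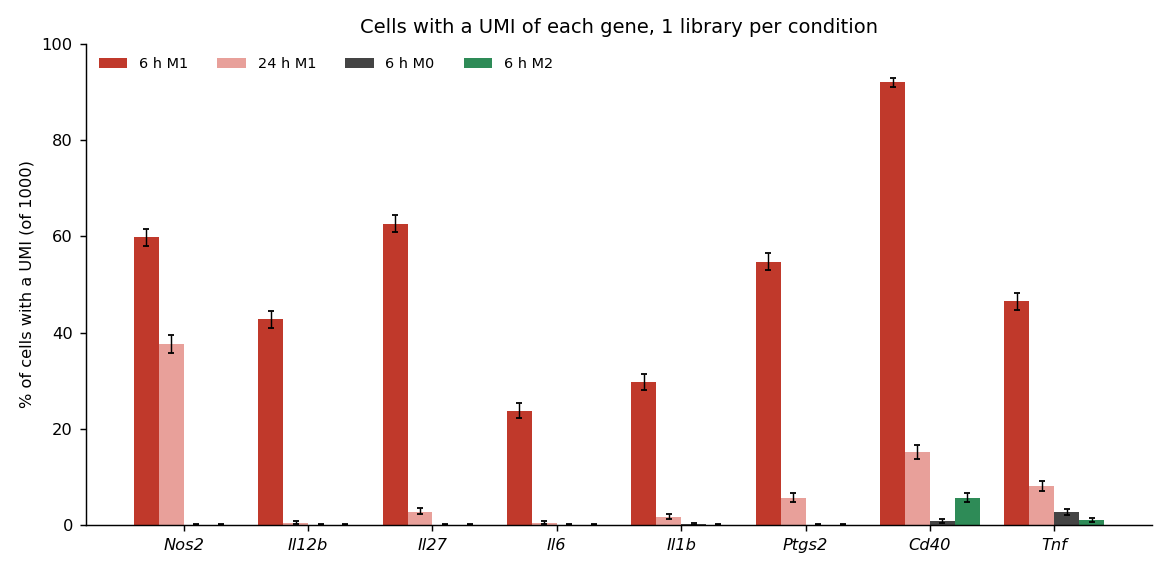
Share of cells with at least 1 UMI of each of 8 genes (y axis, percent) in the M1 libraries of 6 h and 24 h and the 6 h M0 and M2 libraries, after thinning each cell to 1000 UMIs. Bars are 1 library each and error bars are exact binomial 95% intervals, which cover counting error only. At 6 h M1 the shares run from 23.7% for Il6 to 92.1% for Cd40, and at 6 h M0 none exceeds 2.60%.

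Across genes, 7982 had at least 50 UMIs in 1 of the 6 h M1 and 6 h M0 libraries. Of these, 14.3% (1138) were at least 2-fold higher in M1 cells by CPM and 32.5% (2593) at least 2-fold lower, with a median log2 ratio of -0.51. Scaling by the median of ratios instead would raise every log2 ratio by 0.52, giving 1640 genes higher and 1554 lower, so the balance of the directions depends on the scaling. With 1 library per condition these are descriptions of the libraries and not tests.

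Inflammatory genes were mostly higher. Of 21 measured cytokine genes, 20 were at least 2-fold higher in M1 cells, with a median log2 ratio of 5.12. The same was true of 10 of 12 CC chemokines, 6 of 6 CXC chemokines and 22 of 23 M1 effector and costimulation genes. Ccl5, a chemokine for T cells and monocytes, took up 17099 CPM in M1 cells against 3.49 in M0 cells. Cxcl9 and Cxcl10, the IFN-γ-induced ligands of Cxcr3, gave 3782 and 4766 CPM against 0 and 2.66. Ccl6 went against its list, with 428 CPM in M1 and 899 in M0 cells, while Ccl9 was within 2-fold at 2353 and 1593.

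Interferon targets all lay on 1 side. All 30 measured interferon-stimulated genes and all 6 guanylate-binding protein genes were at least 2-fold higher, with median log2 ratios of 6.06 and 8.57. Rsad2, the antiviral enzyme viperin, gave 2077 CPM against 1.33, and Iigp1, an immunity-related GTPase, gave 662 against 0. Serpina3g, a protease inhibitor, gave 841 against 0. In the MHC class I processing list 12 of 13 genes were higher, and in the negative feedback list 14 of 15, among them Socs1 at 593 against 1.99 CPM. Of 10 genes of NF-κB and its signalling 9 were higher, and of 7 MHC class II genes 6 were. The IL-4 response list, which marks the M2 state, had 2 of 7 genes higher and 4 lower. Of 17 measured glycolysis genes 7 were higher and none lower. Pfkp, a phosphofructokinase, gave 438 against 34.0, while Gapdh gave 383 and 393.

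Lower genes were led by the cell cycle. All 25 S phase genes and 23 of 24 measured G2 and M phase genes were at least 2-fold lower in M1 cells. Gmnn, an inhibitor of replication licensing, gave 16.6 CPM in M1 against 510 in M0 cells, a 30.8-fold difference. Birc5, a mitotic survivin, gave 23.9 against 282. Tpx2, a spindle protein, was the exception at 39.9 and 37.9. The lists had median log2 ratios of -4.36 and -3.99 and summed to 235 and 215 CPM in the M1 library, against 2068 and 1968 in the M0 library. Core macrophage genes were mixed, with 5 of 16 higher, 2 lower and 9 within 2-fold. Fcgr1, the high-affinity IgG receptor, gave 523 against 65.8, Adgre1, which encodes F4/80, gave 385 against 186, and Csf1r gave 105 against 388.

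Heterogeneity inside the library was measured by the excess squared coefficient of variation. This is the variance of the thinned UMI count minus its mean, divided by the squared mean, so that pure counting noise gives 0. It was taken for the 1380 genes with a mean of at least 0.1 UMI per cell. The median over these genes was 0.28 and the 90th percentile 0.92, and 119 genes (8.62%) exceeded 1. Low-mean genes scatter more in this measure, as the plot of variation against mean shows.

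**Figure D2:**
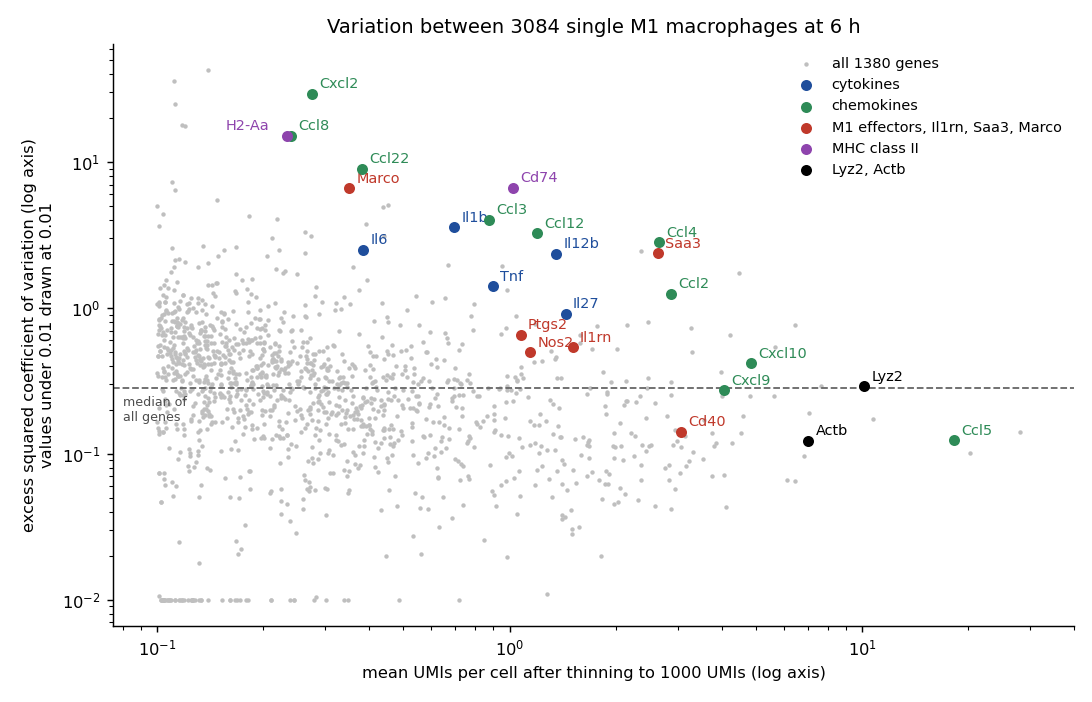
Excess squared coefficient of variation (y axis, log scale) against mean UMIs per cell after thinning to 1000 UMIs (x axis, log scale) for 1380 genes in 3084 M1 cells at 6 h. Each point is a gene, the dashed line is the median of all genes (0.28), and named genes are coloured by group. Values under 0.01 are drawn at 0.01. Il12b, Il6, Il1b and the labelled CC chemokines other than Ccl5 lie above the cloud of genes of like mean, while Ccl5, Cd40 and Cxcl9 lie at or below the median line.

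Cytokine genes varied between cells far more than most genes. Their median excess variation was 1.56 over the 8 that reached the mean of 0.1 UMI, and 5 of the 8 exceeded 1. Il1b had a value of 3.58 (the 98.3th percentile of all genes), Il6 2.50 (97.6th), Il12b 2.36 (97.1th), Ebi3 1.71 (95.9th) and Tnf 1.41 (95.04th). Il27 stood at 0.91, Il1rn, the interleukin-1 receptor antagonist, at 0.54 and Il15 at 0.30. The upper 10% of cells held 63.8% of all Il1b UMIs, 64.2% of Il6 UMIs and 53.3% of Il12b UMIs. Under a Poisson distribution of the same mean they would hold 34.5%, 43.0% and 26.9%.

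The shape of these distributions differed from that of the evenly expressed genes. For Il12b, 42.7% of cells had a UMI where a Poisson distribution of the same mean gives 74.3%, and 1 cell held 20 of its 1000 UMIs as Il12b. For Il1b the shares were 29.7% and 50.2%, with up to 19 UMIs in a cell. For Cd40 they were close, 92.1% and 95.3%, and its excess variation was 0.14. Cxcl9 had a UMI in 91.4% of cells against 98.3%, with an excess of 0.27. In the histograms of UMIs per cell, Il12b and Il1b have most cells at 0 and a long right tail, while Cd40 follows the Poisson line more closely.

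**Figure D3:**
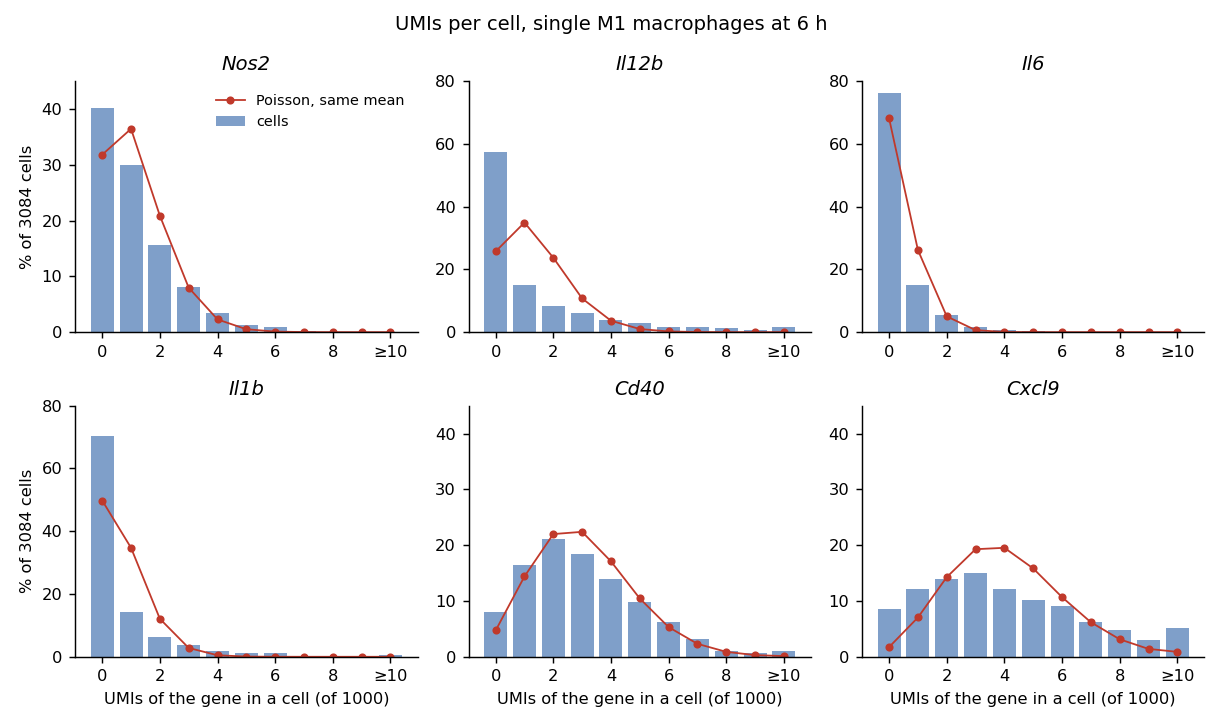
Distribution of UMIs per cell for Nos2, Il12b, Il6, Il1b, Cd40 and Cxcl9 in 3084 M1 cells thinned to 1000 UMIs. Bars give the percent of cells (y axis) at each UMI number (x axis, the last bar holds 10 or more), and the line gives a Poisson distribution of the same mean. Cells without a UMI exceed the line in all 6 panels, from 57.3% against 25.7% for Il12b to 7.94% against 4.71% for Cd40.

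Chemokine genes split into a variable and an even set. Of 11 CC chemokines, 9 exceeded 1, and Ccl5 and Ccl9 (0.52) did not. Ccl3 (4.02), Ccl4 (2.82), Ccl12 (3.24), Ccl7 (2.46) and Ccl2 (1.25), which attract monocytes and other leukocytes, were all expressed in a broad range of levels, with up to 48 UMIs of Ccl4 in a cell. Ccl8, Ccl22 and Ccl24 were rarer and more extreme, with a UMI in 11.02%, 16.1% and 3.99% of cells and excess values of 15.1, 9.02 and 36.2. Ccl5 was found in 99.9% of cells at a mean of 18.2 UMIs, and its excess was 0.12. Among CXC chemokines, Cxcl9 (0.27), Cxcl10 (0.42) and Cxcl16 (0.11) were even, and Cxcl2, a neutrophil attractant, was the exception at 29.5, with a UMI in 9.92% of cells and up to 57 in a single cell. Its value depended on depth and on the small clusters described below, being 35.3 at 500 UMIs, 15.5 at 2000 UMIs and 18.1 without those clusters.

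Interferon-stimulated and guanylate-binding protein genes were more even than the cytokine genes, though above the median of all genes (0.28). The 24 interferon-stimulated genes had a median excess of 0.38 and the 5 guanylate-binding protein genes 0.43, while the 11 MHC class I processing genes had 0.14. Isg15, a ubiquitin-like modifier, had a UMI in 96.7% of cells with an excess of 0.18, and Ifit3, at 2.27, was the most variable of the list. Variable genes were not limited to cytokines and chemokines. The scavenger receptor Marco (6.63), the collagenase gene Mmp13 (5.11), Hmox1 for haem oxygenase (3.32) and Rgcc, a cell cycle regulator (3.12), were among the 15 most variable genes of mean 0.2 or more. So were Ly6a (4.05), Fgl2 (3.73) and the MHC class II genes Cd74, H2-Aa and H2-Ab1, which are described with the clusters. Saa3, an acute-phase protein gene, had 2.38.

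Promoter sequences are given for 4 abundant genes, so that Cxcl10 (0.42) can be read beside the more variable Il12b, Il6 and Il1b. Each is the 250 bases before the start site in RefSeq on the GRCm38.p6 build, on the strand of the gene. Capitals mark matches, on either strand, to TATAAA (the TATA box), GGG and TTTCC spaced by any 2 bases (an NF-κB type site), or GAAA repeated after any 2 bases (an interferon response type site). Il12b lies at chr11:44399813-44400062 (plus strand), Il6 at chr5:30012864-30013113 (plus), Il1b at chr2:129371140-129371389 (minus) and Cxcl10 at chr5:92348890-92349139 (minus).
Il12b: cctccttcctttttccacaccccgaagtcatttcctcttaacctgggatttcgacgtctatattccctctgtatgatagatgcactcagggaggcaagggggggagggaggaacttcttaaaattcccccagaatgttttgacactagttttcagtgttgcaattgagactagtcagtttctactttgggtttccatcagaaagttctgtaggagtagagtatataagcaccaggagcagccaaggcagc
Il6: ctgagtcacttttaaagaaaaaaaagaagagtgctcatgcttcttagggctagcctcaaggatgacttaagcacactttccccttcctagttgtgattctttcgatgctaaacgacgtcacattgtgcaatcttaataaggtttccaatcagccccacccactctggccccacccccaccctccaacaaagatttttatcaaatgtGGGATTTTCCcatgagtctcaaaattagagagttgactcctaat
Il1b: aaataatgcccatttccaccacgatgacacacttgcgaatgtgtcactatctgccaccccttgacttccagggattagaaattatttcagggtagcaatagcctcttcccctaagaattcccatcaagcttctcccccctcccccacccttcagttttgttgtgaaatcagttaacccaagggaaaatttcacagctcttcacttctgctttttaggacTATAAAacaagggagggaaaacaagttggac
Cxcl10: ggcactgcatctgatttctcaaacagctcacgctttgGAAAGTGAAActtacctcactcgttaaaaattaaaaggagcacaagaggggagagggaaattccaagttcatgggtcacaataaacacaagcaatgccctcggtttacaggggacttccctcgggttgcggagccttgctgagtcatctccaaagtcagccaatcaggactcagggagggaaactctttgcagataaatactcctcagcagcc

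The match in Il6 began 44 bases before the start site, that in Il1b 31 bases and that in Cxcl10 213 bases. The Il12b window held no exact match to these motifs. Of all 32851 promoters in the table, 12.4% held TATAAA, 1.41% the NF-κB type site and 2.98% the interferon response type site. Of the 39 cytokine, chemokine and M1 effector genes with a mean of at least 0.1 UMI, 25 had a promoter in the table. TATAAA was found in 8 of those 25, the NF-κB type site in 6 and the interferon response type site in 4. A gene counted when any of its promoters matched, so these are counts of genes, while the shares above are of promoters. A match describes letters in the window and is not a measured binding site. The NF-κB type pattern is narrow, since it fixes TTTCC. Strings close to it, such as GGGAAATTCC and GGGGACTTCC in the Cxcl10 window, were not marked. The TATAAA pattern is narrow too, and TATATAA near the end of the Il12b window was not marked. A window without a mark is therefore not shown to lack NF-κB sites or a TATA box.

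Nos2 itself was less uneven than most of the cytokine genes. Il15 was lower, and the order of Nos2 and Il1rn (0.54) turned when cells were thinned to 500 UMIs or drawn a second time. Its mean was 1.146 UMIs per cell and its excess variation 0.50, the 73.4th percentile of all genes. Of 3084 cells, 1240 (40.2%) had no Nos2 UMI, 921 had 1, 484 had 2 and 439 had 3 or more, up to 12. A Poisson distribution of the same mean gives 68.2% of cells with a UMI, against 59.8% observed. The boundary between cells with and without Nos2 is therefore 1 UMI wide, and cells that lack the transcript cannot be told apart from cells in which it was missed. When cells were split by depth into 4 groups of like size, 67.7% of the shallowest group had a Nos2 UMI before thinning and in the deepest 90.04%, where the overall level would give 99.2%. Nos2 made up 1244 and 993 CPM in these groups.

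Few genes differed in level between cells with and without a Nos2 UMI. Among 1379 genes with a mean of at least 0.1 UMI, Nos2 left out, 0.145% (2 genes) were at least 1.5-fold higher in the 1844 cells with Nos2 and 0.725% (10 genes) at least 1.5-fold lower. A second random draw of the UMIs gave 0 genes higher and 9 lower, while 24 genes in all passed at 2000 UMIs and 26 when cells with at least 2 Nos2 UMIs were set against cells with none. The median ratio was 0.988. The classes had median depths of 2216 and 2452 UMIs before thinning and median mitochondrial shares of 1.51% and 1.39%. The first class held none of the 35 cells of the Ccr7 cluster described below and the second held all 35.

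Genes higher with Nos2 were few, and the highest ratios were modest. Rgcc had 0.52 UMI per cell in cells with Nos2 and 0.33 in cells without, a ratio of 1.57 (counting interval 1.40 to 1.77). Ch25h, a cholesterol hydroxylase, had a ratio of 1.53. A second draw gave 1.17 for Rgcc, outside that interval, and 1.42 for Ch25h. Il1rn was next among genes of mean 0.2 or more, with 1.72 against 1.20 UMIs and a ratio of 1.44 (counting interval 1.36 to 1.53). Il1rn was higher at each step of Nos2, from 1.20 UMIs in cells with none to 1.51, 1.87 and 2.03 in cells with 1, 2 and 3 or more. Hif1a, a transcription factor of the hypoxia and glycolysis response, had a ratio of 1.42, Saa3 of 1.36 and Slc7a2, an arginine transporter, of 1.34. Saa3 and Mt2, a metallothionein, were also higher at each step, Saa3 from 2.17 to 3.32 UMIs and Mt2 from 0.81 to 1.36.

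Genes lower with Nos2 were led by antigen presentation, and most of these differences were smaller without 2 small clusters. H2-Aa had a ratio of 0.48, H2-Ab1 of 0.51, Cd74, the MHC class II invariant chain, of 0.54 and Ccl22 of 0.54. Of the 6 MHC class II genes 4 were at least 1.5-fold lower. Without the cells of the 2 clusters that stood apart, described below, the ratios were 0.997 for H2-Aa, 0.72 for H2-Ab1, 0.89 for Cd74 and 0.68 for Ccl22, and 4 genes in all passed 1.5-fold, 2 in each direction. Cited2, a transcriptional coregulator, and Dusp2, a MAP kinase phosphatase, were the 2 lower ones, with ratios of 0.61 and 0.62.

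The cytokine genes lay on both sides of 1 by Nos2. Beside Il1rn, Il27 was higher with Nos2 at a ratio of 1.12 (counting interval 1.06 to 1.19). Ebi3 was lower at 0.70 (0.59 to 0.84), Il1b at 0.78 (0.72 to 0.85) and Il12b at 0.89 (0.84 to 0.95). The intervals of Il6, Tnf and Il15 held 1. All these intervals treat UMIs as independent, although UMIs of a gene were clumped in cells (excess of 2.36 for Il12b). They are therefore too narrow and do not settle which ratios differ from 1. Without the 2 clusters that stood apart the ratios were 0.83 for Ebi3, 0.92 for Il1b and 0.91 for Il12b. Il1b had 0.80, 0.69, 0.57 and 0.56 UMIs in cells with 0, 1, 2 and 3 or more Nos2 UMIs, and Il12b had 1.45, 1.27, 1.27 and 1.38. None of the 8 cytokine genes passed 1.5-fold, where 0.145% and 0.725% of all genes did. None of 24 interferon-stimulated genes and none of 15 M1 effector genes passed either, which at these shares sets neither list apart. Cd40 and Ccl5 had 2.99 and 18.0 UMIs in cells without Nos2 against 3.32 and 18.8 in cells with 3 or more.

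Cells with none and cells with all 4 of the main cytokines were both more frequent than the separate shares give. Of 3084 cells, 593 (19.2%) had a UMI of none of Il12b, Il6, Il1b and Tnf, and 81 (2.63%) had all 4, where multiplying the separate shares gives 16.4% and 1.40%. Il6 and Il1b were found together in 9.70% of cells against a product of 7.05%, the largest departure among 21 pairs of 7 genes. Among cells with Il6, 40.8% also had Il1b, and among cells without it 26.2% did. Il12b and Il1b were found together in 12.7% of cells, and the product was also 12.7%. For Nos2 with Il12b the values were 25.4% and 25.6%.

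Co-expression was then described by a correlation from which Poisson noise had been removed from the variances. Cells of 1 library share its free RNA and preparation, so these values are descriptions over 3084 cells. The 39 genes of the cytokine, chemokine and M1 effector lists made 741 pairs, with a median corrected correlation of 0.03, and 46 pairs reached 0.25. The highest values were 0.70 for Ccl2 and Ccl7 (0.58 uncorrected) and 0.66 for Ccl3 and Ccl4 (0.55). Next came Cd86 and Upp1 (0.49), Il15 and Gch1 (0.48, but 0.04 uncorrected) and Nos2 and Il1rn. Ccl7 and Ccl12 had 0.45 and Ccl2 and Ccl12 0.43. Between the Ccl3 and Ccl4 pair and these 3 genes values were lower, from 0.10 for Ccl4 and Ccl12 to 0.28 for Ccl2 and Ccl3.

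**Figure D4:**
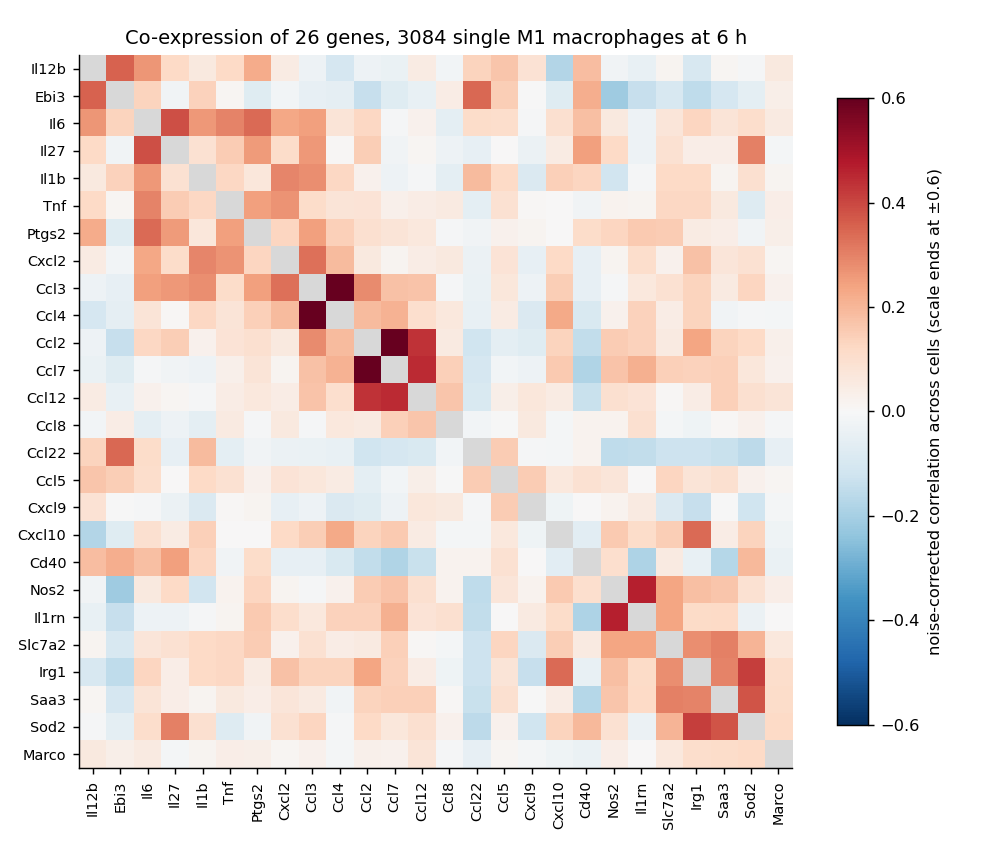
Noise-corrected correlation across 3084 M1 cells at 6 h for 26 genes of the cytokine, chemokine and M1 effector lists, on a scale that ends at 0.6 in either direction (the diagonal is grey). Blocks of high values join Ccl3 with Ccl4 (0.66), Ccl2 with Ccl7 and Ccl12 (0.70 and 0.43) and Nos2 with Il1rn (0.46), and Il6 is joined to Il27 (0.39), Ptgs2 (0.34) and Tnf (0.30).

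Il6 reached 0.25 with 5 of the other genes, all of them cytokines or Ptgs2. Its corrected correlation was 0.39 with Il27, 0.34 with Ptgs2, 0.30 with Tnf, and 0.26 with both Il12b and Il1b. The value of Il6 with Il12b depended on the settings, from 0.17 at 2000 UMIs to 0.35 at 500, and was under 0.25 also in the second draw (0.24) and without the 2 clusters that stood apart (0.24). Il12b was correlated most with Ebi3, the partner chain of Il27, at 0.35, then with Il6 and with Ptgs2 (0.22), and least with Cxcl10 (-0.18). At 500 UMIs the order of its first partners turned, with 0.25 for Ebi3. With all cells of the first draw, Il1b was correlated most with the chemokines Cxcl2 (0.29) and Ccl3 (0.28), then with Il6. The value of Il1b with Il12b was not among its 6 highest. Il6 stood above Cxcl2 as a partner of Il1b at 500 UMIs (0.34 and 0.25) and 2000 UMIs (0.35 and 0.20). It also did so in the second draw (0.28 and 0.27) and without the 2 clusters that stood apart (0.26 and 0.23). Cxcl2 stayed above Il6 without shared barcodes, without the deepest barcodes and without those of highest mitochondrial share. Irg1, which encodes the itaconate-producing enzyme, was correlated with Sod2 (0.41), Gch1, the first enzyme of tetrahydrobiopterin synthesis (0.35), and Cxcl10 (0.34). Sod2, the mitochondrial superoxide dismutase, was also correlated with Saa3 (0.38).

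Nos2 was correlated most with Il1rn, at 0.46 corrected and 0.19 uncorrected. Its next partners were Cybb, the phagocyte oxidase subunit (0.24), Slc7a2 (0.24), Irg1 (0.18), Ccl7 (0.17) and Saa3 (0.17). The lowest values were with Ebi3 (-0.21), Ccl22 (-0.15), Il15 (-0.14) and Il1b (-0.12), and with Il12b it was -0.02. Without the 2 clusters that stood apart, Nos2 and Il1rn stayed at 0.46 and Il6 and Il27 were at 0.40, while Ebi3 and Ccl22 went from 0.35 to 0.12.

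Leiden clustering gave 7 clusters of 1220, 1025, 459, 299, 138, 72 and 35 cells. The cluster of 1025 cells was led by mitochondrial and ribosomal protein genes such as mt-Nd2 and Rpl37a and had a median of 1481 UMIs, while that of 459 cells was led by Hspa5, Ms4a6d and Ifi47 and had 4654. Nos2 ranged only from 999 to 1258 CPM among these 5, a 1.26-fold range, and Cxcl10 from 4115 to 5035. Il12b ranged from 799 to 1705 CPM, Il1b from 421 to 1386 and Ccl12 from 403 to 1563. The share of thinned cells with Nos2 lay between 58.1% and 69.6%.

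The cluster of 138 cells was led by Mmp12, the macrophage metalloelastase, at 1303 CPM, with Fabp5, a fatty acid binding protein, F10, Gpnmb and Spp1, which encodes osteopontin. It had the lowest Ccl12 and Ccl7 (985) of the 5 and the highest Il1b and Tnf (1305). The cluster of 299 cells was led by H2afz, Ly6a and Ccl2, and its Ccl2 level of 5063 CPM compared with 2588 to 3174 in the other 4. It also had the most cell cycle transcripts of the 5, with S phase genes at 536 CPM in all and G2 and M phase genes at 639, against 165 to 214 and 101 to 215 in the other 4.

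**Figure D5:**
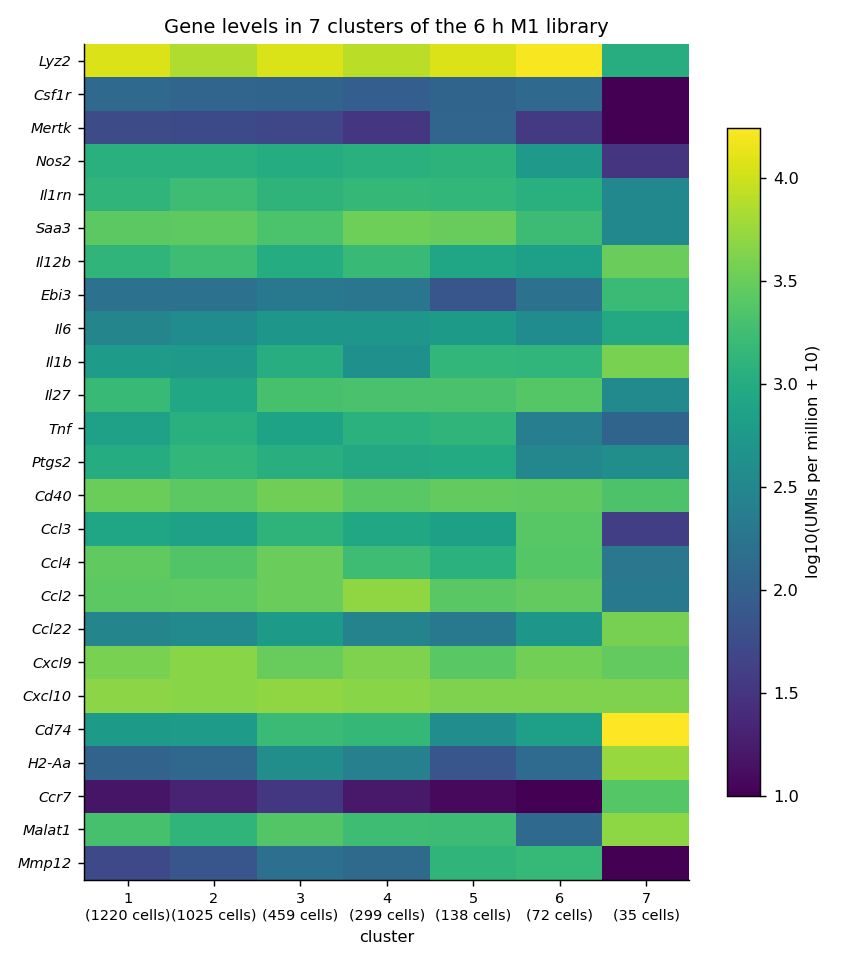
Levels of selected genes (rows) in the 7 clusters of the 6 h M1 library (columns, with cell numbers), as log10 of CPM plus 10. Nos2 is alike in clusters 1 to 5 (999 to 1258 CPM), lower in cluster 6 (552) and nearly absent from cluster 7 (20.4), which carries Cd74, H2-Aa, Ccr7, Ccl22, Il12b and Il1b at their highest levels.

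Both remaining clusters stood apart. The 72 cells had a median of 0.11% mitochondrial UMIs and 119 CPM of the nuclear RNA Malat1, against 1326 to 2410 in the 5 largest clusters. They carried Mmp12 (1503), Ccl3 (2497) and Cxcl2 (697) at high levels and Nos2 (552) and Tnf (238) at low ones, and 38.3% of their 60 thinned cells had a Nos2 UMI. Markers of platelets and neutrophils moved with this cluster. It held all 9 Gp1bb UMIs of the library and 6 of the 7 of Gp9, with Ppbp at 229 CPM against 2.24 to 18.7 in the 5 largest clusters. The list of neutrophil and precursor genes summed to 442 CPM there, 314 of it S100a8, against 12.3 to 87.3 in those 5. The part of such RNA in the values of this cluster was not tested.

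The 35 cells were led by Plac8, Ccr7, the receptor for lymph node homing, and MHC class II genes. The macrophage markers Csf1r and Mertk gave 0 UMIs there. Both were sparse in the library, Csf1r with a UMI in 10.3% of the other thinned cells and Mertk with 377 UMIs in all. The 16 core macrophage genes summed to 6713 CPM in the 35 cells against 30630 in the largest cluster. The 10 migratory dendritic cell genes summed to 10029 CPM, against 613 to 1313 in the 5 largest clusters. The 9 dendritic cell genes summed to 582, of which Ly6d made up 398 and Siglech 71.4, while Flt3 had 2 UMIs, Zbtb46 and Xcr1 had 1 each, and Clec9a and Cd209a had 0. These cells are therefore called by Ccr7 and given no cell type name.

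In these 35 Ccr7 cells Nos2 gave 2 UMIs of 98020, and 0 of 35 thinned cells had one, which allows a share of up to 8.57% at the floor of 3 counts (10.0% by the exact binomial interval). Their median depth was 2360 UMIs, against 2215.5 in the whole library. The same cells had the highest levels of Il12b (3214 CPM), Il1b (3938), Ebi3 (1632) and Ccl22 (3795) of any cluster. Il1b had a UMI in 57.1% of them (39.4 to 73.7) and in 29.4% of the other 3049 cells, and Il6 in 45.7% (28.8 to 63.4) and 23.5%. For Il12b the shares were 31.4% (16.9 to 49.3) and 42.9%, although its level in CPM was higher. Tnf (102) and Ccl3 (30.6) were low. Cluster levels use the genes that formed the clusters and are given as descriptions.

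The excess variation was also taken without both small clusters. It was then 2.23 for Il12b, 2.45 for Il6, 3.01 for Il1b, 1.37 for Tnf, 3.28 for Ccl3 and 0.47 for Nos2. The MHC class II genes moved too, Cd74 from 6.68 to 2.40 and H2-Aa from 15.1 to 4.90. Ebi3 went from 1.71 to 0.71, under the value of 1 that it had exceeded, and the median of the 8 cytokine genes from 1.56 to 1.13. Cxcl2 went from 29.5 to 18.1.

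Part of the pattern could be set beside the other libraries. At 24 h M1, Il12b, Il6, Il1b and Tnf no longer reached a mean of 0.1 UMI. Nos2 did, with an excess variation of 0.81 against 0.50 at 6 h. Ccl12 and Ccl8 had 3.53 and 15.4 at 24 h and 3.24 and 15.1 at 6 h, and Ccl2 had 0.47 against 1.25, with a UMI in 93.4% of cells. Ly6a went from a UMI in 15.05% of cells and an excess of 4.05 at 6 h to 78.7% and 0.46 at 24 h. Among genes that reached the mean in both 6 h libraries, the median excess was 0.23 in M1 and 0.20 in M0 cells over 975 genes. No cytokine gene reached it in M0 cells. Over the 5 CC chemokines that did so in both, the median was 1.55 in M1 and 4.65 in M0 cells. Over 3 M1 effector and costimulation genes it was 0.25 and 0.65. Cd74 had 6.68 in M1 and 87.2 in M0 cells, at means of 1.02 and 0.21 UMI. The core macrophage list (13 genes, 0.31 and 0.24) and Pf4 (0.76 and 0.66) went the other way. Low-mean genes scatter more in this measure, and none of these comparisons was matched for mean.

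Bulk libraries of the same stimulus and time gave a replicated reading of the markers, with 3 biological replicates of 6 h M1 and 3 of 0 h M0, since no 6 h M0 bulk sample was used here. In bulk RNA, fewer expressing cells and less RNA per cell cannot be told apart. Nos2 was at 2477, 2782 and 2860 FPKM in the 6 h M1 replicates and at 0.17, 0.14 and 0.03 FPKM at 0 h M0. Its difference was 11.25 ± 0.36 (SE) on the log2(FPKM + 1) scale, with an adjusted p of 3.57e-50 by limma with Benjamini-Hochberg adjustment. In the same fit 38.4% of 8307 genes were called higher and 28.9% lower at an adjusted p of 0.05.

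Il12b was at 1175, 251 and 306 FPKM in the 3 M1 replicates and at 0 in all 3 M0 replicates, a difference of 8.81 ± 0.50 (adjusted p = 3.99e-31, limma). Il6 was at 984, 573 and 525 FPKM and Ptgs2 at 1652, 912 and 793, and for both the first replicate was the highest. Il27 was closer together at 852, 915 and 1013 FPKM, as was Il1b at 1068, 915 and 875. Il1rn rose from 73.6, 98.8 and 158 FPKM at 0 h M0 to 2544, 3224 and 3962, a difference of 4.92 ± 0.38 (adjusted p = 3.11e-22, limma). The groups did not overlap for any of these 6 genes or for Cd40, which was at 3181, 2563 and 3166 FPKM against 2.83 to 4.35. All 6 markers, 20 of 23 cytokine genes and 31 of 31 interferon-stimulated genes were called higher. Arg1 overlapped between the groups, at 1.77, 11.3 and 20.9 FPKM in M1 and 4.06 to 9.24 in M0 (adjusted p = 0.64, limma).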

How the data were processed

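Single-cell count tables were deposited by the authors as UMI counts per gene and cell, made with 10X Cell Ranger on mm10 (its version and its cell filter are not given in the sources used here). The bulk table was deposited as log10(FPKM + 1), from TopHat 2.0.14 and Cuffnorm 2.2.2, and was turned back into FPKM. The cells, markers and gene lists were chosen with earlier results of these data known. Levels (CPM) are UMIs per 1000000 UMIs of a library. Cells were thinned to 1000 UMIs (seed 11), without replacement. Genes named in the text are the 6 markers, Nos2 and Arg1, the 12 highest and 12 lowest ratios at 200 CPM or more, the 15 most variable genes, the 12 highest and lowest Nos2 ratios, the 6 leading genes per cluster, and members of the fixed lists. Not all of these are printed, and Ch25h, Cited2 and Dusp2 were named after their values were seen. Clusters came from Leiden (leidenalg 0.10.2, resolution 0.5, 15 neighbours, 20 principal components, 1500 variable genes). Bulk values were fitted with limma 3.58.1 on log2(FPKM + 1) over all 145 bulk libraries of 48 conditions. Same-numbered bulk replicates deviated together (correlations of 0.45, 0.48 and 0.53 of the deviations from the group means). The bulk differences, SE, adjusted p and called shares given here came from the fit without a replicate term. A replicate block was run only as an alternative. Single-cell intervals were exact (scipy 1.17.1, Python 3.11.15). The variation, correlation, fold and limma steps were tested on simulated data; clustering and motif searches were not. The chromatin files were not used here.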

Additional observations from a re-analysis of the deposited data

How the results depend on the processing

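The share of cells with Nos2 depended on depth, being 38.9% after thinning to 500 UMIs, 76.2% at 2000 UMIs and 79.2% without thinning, where Poisson distributions give 43.2%, 88.6% and 88.0%. Genes past 2-fold between M1 and M0 cells numbered 6391 of 14072 measured with a minimum of 1 UMI. The lower ones numbered 1554 of 7982 measured genes under median-of-ratios scaling. They numbered 4060 of 10729 with a minimum of 10 UMIs and 4750 of 14072 with a minimum of 1 UMI. Genes past 1.5-fold by Nos2 numbered 24 at 2000 UMIs, 26 for cells with at least 2 Nos2 UMIs, and 4 without the 2 clusters that stood apart (an alternative chosen after seeing the data). A second random draw gave 0 genes higher and 9 lower, and the ratio of Rgcc lay between 1.17 and 1.67 over the settings, so the 2 genes called higher depended on the draw. Il1rn kept a ratio of 1.25 to 1.62 and Saa3 of 1.303 to 1.64. The ratio of Hif1a lay between 1.13 and 1.56 and that of Slc7a2 between 1.11 and 1.39, both lowest at 500 UMIs. The ratio of Il6 lay on both sides of 1, from 0.74 to 1.28. Cluster numbers were 4 at resolution 0.25 and 11 at resolution 1, and the 35 Ccr7 cells formed their own cluster at each. The median excess variation of cytokine genes stayed between 1.13 and 1.87, and co-expressed pairs between 46 and 60. The second draw is not part of the range of pairs. With the replicate block the bulk fit called 6050 genes in place of 5590, and no call on a gene named in the bulk results changed. Leaving out each bulk replicate gave 5297 to 5407. Beyond the looser minimums and the changed depth themselves, the cause of these shifts was not tested. Depth limits every share given here: a cell without a UMI may still carry the transcript.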

Other observations

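UMIs of Ifnb1, which encodes the type I interferon interferon-β, were found in few of the M1 cells. Ifnb1 gave 338 UMIs in the 6 h M1 library and 0 at 6 h M0, and 2.69% of thinned M1 cells had a UMI, with up to 6 in a cell. At so low a level the share alone does not tell few cells with the transcript from a low level in many. Il1a, the other interleukin-1 agonist, was found in 3.66% of cells, against 29.7% for Il1b. Il12a, the p35 chain that pairs with Il12b to form interleukin-12, gave 101 UMIs in the library, Il10 gave 89 and Il23a 0. Plac8 was found in 0.584% of thinned cells with up to 15 UMIs in a cell, and S100a8, a neutrophil and myeloid precursor gene, in 1.36% with up to 29.

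Spp1 and C1qa, which mark macrophage states in tissues, also varied at 6 h M1. Spp1 had an excess variation of 1.95 and a UMI in 45.8% of cells, and C1qa 3.03 and 15.5%. Apoe and C1qb were more even at 0.54 and 0.52. Cd14, the LPS co-receptor, had 3.09.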
